A study of Mus musculus with 4 samples.

Results

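PIWI proteins are Argonaute family proteins of the germline that bind piRNAs, small RNAs that guide them to transposon and other transcripts. A long single-stranded precursor is unwound and cut at the mitochondrial surface, the fragment is loaded into a PIWI protein, and its 3′ end is trimmed and methylated. In the mouse testis a first wave of piRNAs acts before birth, and a second, much more abundant wave is made in pachytene spermatocytes. The 10 genes described here were chosen by name: the PIWI genes *Piwil1*, *Piwil2* and *Piwil4*, and the piRNA processing genes *Mael*, *Mov10l1*, *Pld6*, *Asz1*, *Henmt1*, *Pnldc1* and *Gtsf1*. Each of the 10 was among the 24411 rows of the deposited expression files.

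The study asked how the loss of the zinc-finger protein ZFP541 alters the transcriptome of spermatocytes in meiotic prophase. GFP-positive cells were sorted from testes at postnatal day 18 of mice whose strain the labels give as a C57BL/6 and CBA mix and the study's methods as C57BL/6, and which carried *Rec8-3xFLAG-HA-p2A-GFP*, a knock-in that makes GFP from the locus of the meiotic cohesin gene *Rec8*. RNA was sequenced from 2 control *Zfp541*+/- testes and 2 samples labelled *Zfp541* KO, called the KO-labelled libraries below. The KO allele is a CRISPR/Cas9 deletion of most of the exons of the gene. Both KO samples were homozygous for the knock-in, whereas 1 control was heterozygous and 1 homozygous for it, and the labels do not say which control was which. Expression was given in TPM, a share of all transcripts scaled to a fixed total, which divides by gene length so that levels of different genes can be set side by side. These values hold no sequencing depth, so counting error is unknown.

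The labels and the sort were checked first. *Zfp541* itself measured 112 TPM in control 1, 72.2 TPM in control 2, 136 TPM in KO 1 and 151 TPM in KO 2. Its RNA was thus not lower in the KO-labelled libraries. A single TPM value per gene does not show whether the deleted exons were read, so this level does not settle the genotype, and the directions below follow the labels. *Rec8*, whose locus drives the GFP used for the sort, was at 7.05 TPM in control 1, 27.9 TPM in control 2, 27.7 TPM in KO 1 and 19.4 TPM in KO 2, lowest in control 1. The summed level of 10 leptotene and zygotene markers was 2565 and 3527 TPM in the controls, against 5172 and 5353 TPM in the KO-labelled libraries. Most of this sum was *Sycp3*, *Hormad1* and *Sycp1* in each library. *Sycp3* alone was at 1108 and 1263 TPM in the controls, against 2093 and 2196 TPM in the KO-labelled libraries. The study also stained SYCP1 and SYCP3 in pachytene spermatocytes, so this sum does not measure the earlier stages alone. The sum of 10 pachytene markers was 7621 and 4357 TPM in the controls, against 2403 and 3295 TPM in the KO-labelled libraries. Most of this sum was *Ldhc*, *Meig1* and *Hspa2* in each library. *Ldhc* and *Meig1* lay below both controls in the KO-labelled libraries. *Hspa2* overlapped between the groups, at 1346 and 761 TPM in the controls, against 1000 and 1223 TPM. Neither sum overlapped between the groups. Among the somatic cell lists, control 2 lay within the range of the other libraries in the Sertoli cell and peritubular myoid lists. It lay far below them in the Leydig cell list and in the macrophage and blood list. Its 6 Leydig cell markers summed to 18.0 TPM, against 2910 TPM in control 1 and 332 and 504 TPM in the KO-labelled libraries. Its 7 macrophage and blood markers summed to 32.4 TPM, against 1640 TPM in control 1 and 1322 and 955 TPM in the KO-labelled libraries. The part of these lists in the members' differences was not tested. In bulk RNA, fewer cells of a stage and less RNA per cell cannot be told apart.

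**Figure D1:**
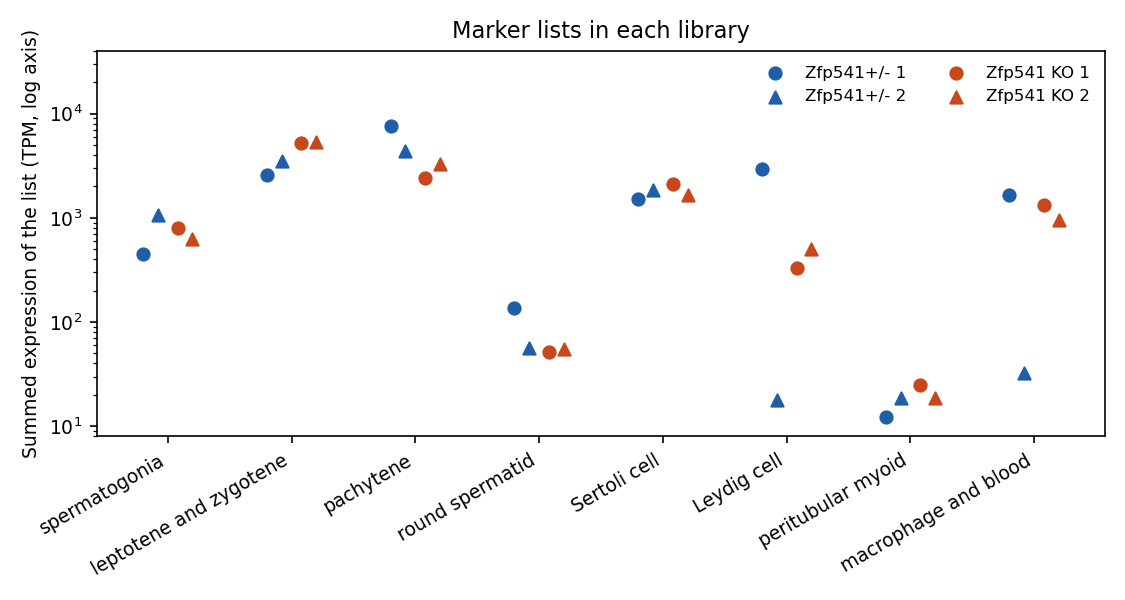
Summed TPM of the marker lists of 8 cell types or stages (y axis, log scale) in the 4 libraries, with blue points for the controls and orange points for the KO-labelled libraries. Control 2 lies far below the other libraries in the Leydig cell list (18.0 TPM) and in the macrophage and blood list (32.4 TPM). The leptotene and zygotene list, the pachytene list and, narrowly, the round spermatid list separate the groups.

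The members lie on different chromosomes of mm10 (GRCm38, GENCODE annotation), except for a pair on chromosome 15, and all are protein-coding genes. *Piwil1* is on the forward strand at chr5:128702524-128755474, *Piwil2* on the reverse strand at chr14:70372477-70429383 and *Piwil4* on the reverse strand at chr9:14696230-14740733. *Mael* is on the reverse strand at chr1:166201201-166238747, *Mov10l1* on the forward strand at chr15:88982909-89055152 and *Gtsf1* on the reverse strand at chr15:103402405-103430470. *Pld6* is on the reverse strand at chr11:59783897-59787645, *Asz1* on the reverse strand at chr6:18050964-18109061, *Henmt1* on the forward strand at chr3:108939873-108960774 and *Pnldc1* on the reverse strand at chr17:12888729-12910230. Exons of *Henmt1* share 392 bases with *Gm9857* on the opposite strand, exons of *Pnldc1* share 144 bases with an antisense gene, and exons of *Piwil4* share 137 bases with the antisense gene *Gm10706*. The counting is not stated to have used strand, so reads from these shared bases cannot be told apart.

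Promoters are shown for members that averaged 1 TPM or more and whose values did not overlap between the groups, as given further on. Those higher and those lower in the KO-labelled libraries can thus be compared. *Piwil4*, which was below that level and higher in the KO-labelled libraries, is not shown. RefSeq starts (GRCm38.p6) were found for 8 of the 10 members, with 10 starts in all. *Piwil2* and *Pnldc1* were not matched. Each line gives 150 bases upstream of the start that lie outside annotated exons, 5′ to 3′ on the strand of the gene (the more upstream start for *Pld6*), and for *Piwil1*, in which the groups overlapped, 27 bases around a match to the MYB core. That match lies almost wholly within the first exon of a GENCODE transcript of *Piwil1*, upstream of the RefSeq start, unlike the other stretches shown. Capitals mark CAGTT, the reverse complement of the MYB core AACTG, and CCGCCC or its reverse complement GGGCGG, the core of the GC box.
Mov10l1, chr15:88982759-88982908, forward strand: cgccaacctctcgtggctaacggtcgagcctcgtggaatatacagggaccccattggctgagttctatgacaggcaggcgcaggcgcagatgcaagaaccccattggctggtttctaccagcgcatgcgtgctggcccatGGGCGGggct
Asz1, chr6:18109062-18109211, reverse strand: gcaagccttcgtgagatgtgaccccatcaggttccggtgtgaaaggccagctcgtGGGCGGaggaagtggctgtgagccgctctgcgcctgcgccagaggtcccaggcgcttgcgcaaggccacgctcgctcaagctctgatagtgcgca
Mael, chr1:166238748-166238897, reverse strand: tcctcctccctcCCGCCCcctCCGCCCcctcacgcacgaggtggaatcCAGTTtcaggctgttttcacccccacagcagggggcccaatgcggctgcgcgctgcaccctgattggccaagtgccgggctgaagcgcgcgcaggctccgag
Pld6, chr11:59787658-59787807, reverse strand: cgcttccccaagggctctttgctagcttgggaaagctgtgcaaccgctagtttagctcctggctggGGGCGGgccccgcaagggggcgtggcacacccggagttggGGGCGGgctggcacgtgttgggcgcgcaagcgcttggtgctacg
Gtsf1, chr15:103430471-103430620, reverse strand: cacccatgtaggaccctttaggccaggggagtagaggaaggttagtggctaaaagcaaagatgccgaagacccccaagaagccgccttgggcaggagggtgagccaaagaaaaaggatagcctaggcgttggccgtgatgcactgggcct
Piwil1, chr5:128736163-128736189, forward strand: agggatctggCAGTTggggctgttagc

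Over the 250 bases before each start and on both strands, the MYB core was found at 3 of the 8 members (*Mael*, *Piwil1* and the more downstream start of *Piwil4*), and 39.1% of all 32851 promoters of this length hold it. The GC box core was found at 6 of the 8 members, *Mael*, *Henmt1*, *Piwil1*, *Asz1*, *Pld6* and *Mov10l1*, and at 32.7% of all promoters. The short form of the cyclic AMP response element, TGACG, was found at *Henmt1* alone and at 17.8% of all promoters, and the full element TGACGTCA at none of the members and at 1.55% of all promoters. These matches did not overlap each other at any member. GC content of the members' windows ranged from 47.2% to 78.4%, against a median of 52.4% over all promoters. The GC box core was found at members with higher levels in the KO-labelled libraries (*Mov10l1* and *Asz1*) and at members with lower levels. The MYB core was found at *Mael* and *Piwil1*, whose mean levels were lower there. Its only match at a higher member was at *Piwil4*, which was at 1.8 TPM or less in each library. *Piwil2* and *Pnldc1*, which were higher, had no promoter to search.

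The expression of the 10 members spanned from under 1 TPM to over 1000 TPM. In the controls, *Mael* had the highest mean at 1117 ± 110 TPM (SD, n = 2), followed by *Piwil1* at 475 ± 327, *Gtsf1* at 384 ± 14.9, *Piwil2* at 294 ± 8.00, *Mov10l1* at 239 ± 62.8, *Pld6* at 168 ± 57.1, *Asz1* at 101 ± 11.7, *Henmt1* at 38.1 ± 20.9, *Pnldc1* at 27.8 ± 0.488 and *Piwil4* at 0.52 ± 0.0566 TPM. *Piwil1* ranged so widely between the controls that its values overlapped in rank with those of *Gtsf1*, *Piwil2* and *Mov10l1*. Likewise *Mov10l1* overlapped with *Pld6*, and *Henmt1* with *Pnldc1*. In the KO-labelled libraries *Mael* again had the highest mean, at 749 ± 41.3 TPM (SD, n = 2), and *Piwil2* (529 ± 30.8) and *Mov10l1* (472 ± 0.608) came next, above *Piwil1* (301 ± 89.3) and *Gtsf1* (250 ± 23.1). *Asz1* (171 ± 11.4), *Pld6* (102 ± 9.79), *Pnldc1* (39.9 ± 5.63) and *Henmt1* (23.8 ± 4.84) followed. There *Piwil1* and *Gtsf1* were the only neighbours whose values overlapped, and *Pnldc1* lay above *Henmt1*.

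**Figure D2:**
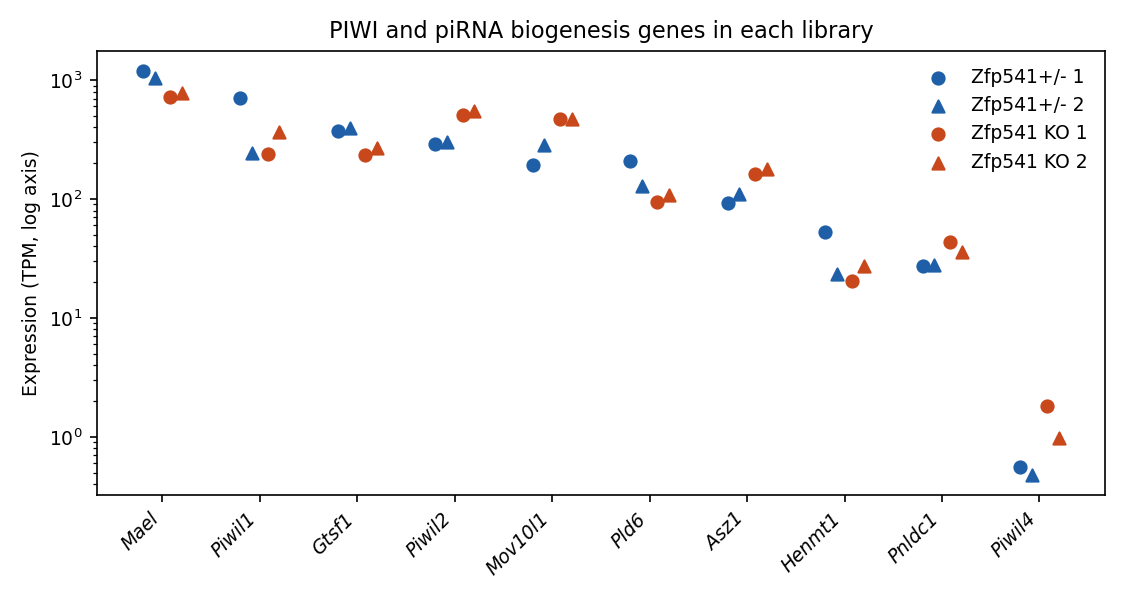
TPM (y axis, log scale) of the 10 members in each library, ordered by their mean in the controls, with blue for the controls and orange for the KO-labelled libraries. *Mael* is at the top in all 4 libraries, *Piwil4* is at or below 1.8 TPM in each, and the 2 controls lie farthest apart in *Piwil1* (706 and 244 TPM).

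The members were compared between the groups on the log2(TPM + 1) scale in the limma fit over the 14512 genes that averaged 1 TPM or more. This filter passed 9 of the 10 members and removed *Piwil4*. None of the 9 members passed an FDR of 0.05 by limma, where 0% of all genes tested passed. At an unadjusted p under 0.05 from limma there were 3 members higher in the KO-labelled libraries (*Piwil2*, *Mov10l1* and *Asz1*) and 1 lower (*Gtsf1*), and over all genes tested 10.7% were higher and 3.73% lower at that level. The values of the KO-labelled libraries lay above both controls in 4 of the 9 members, *Piwil2*, *Mov10l1*, *Asz1* and *Pnldc1*, against 38.6% of all genes tested. They lay below both controls in 3 of the 9, *Mael*, *Pld6* and *Gtsf1*, against 12.1% of all genes tested, and overlapped in *Piwil1* and *Henmt1*. Counts of this size among 9 genes are not separated from that background by any test here, and with 2 samples against 2 an exact permutation test of a single gene cannot give a p below 0.33. One member, *Mov10l1*, was at least 2-fold higher, against 8.99% of all genes, and 0 were at least 2-fold lower, against 5.22%.

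The median log2 fold change of the 9 members was -0.49, against 0.28 over all genes tested, and since the list was split, with 4 members above 0 and 5 below, it is the value of its middle member, *Piwil1*, and does not stand for the list. The shift of 0.28 over all genes depends on the scaling. Median-ratio scaling brought it to -0.0044 and left the sign of each of the 9 members as it was. It also turned the share of all genes with the KO-labelled libraries above and below the controls from 38.6% and 12.1% to 23.1% and 22.3%, and quantile normalization gave 27.8% and 19.4%. Under both scalings 3 members lay above both controls, without *Pnldc1*, and 4 below, with *Henmt1*. At an unadjusted p under 0.05 from limma, median-ratio scaling left 0 members higher and 3 lower, with 629 genes higher and 1079 lower in all, against 1549 and 542 without scaling. Quantile normalization gave 3 members higher and 2 lower at that level, with 1010 genes higher and 1009 lower in all. The sizes moved as well. Under median-ratio scaling *Piwil2* was at 0.52, *Asz1* at 0.43, *Pnldc1* at 0.18, *Mael* at -0.90, *Gtsf1* at -0.94, *Henmt1* at -0.87 and *Piwil1* at -0.82, each more than 1.5 times away from the value as deposited, and the median of the members was -0.82. Under quantile normalization this held for *Pnldc1*, at 0.23, and *Henmt1*, at -0.87.

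**Figure D3:**
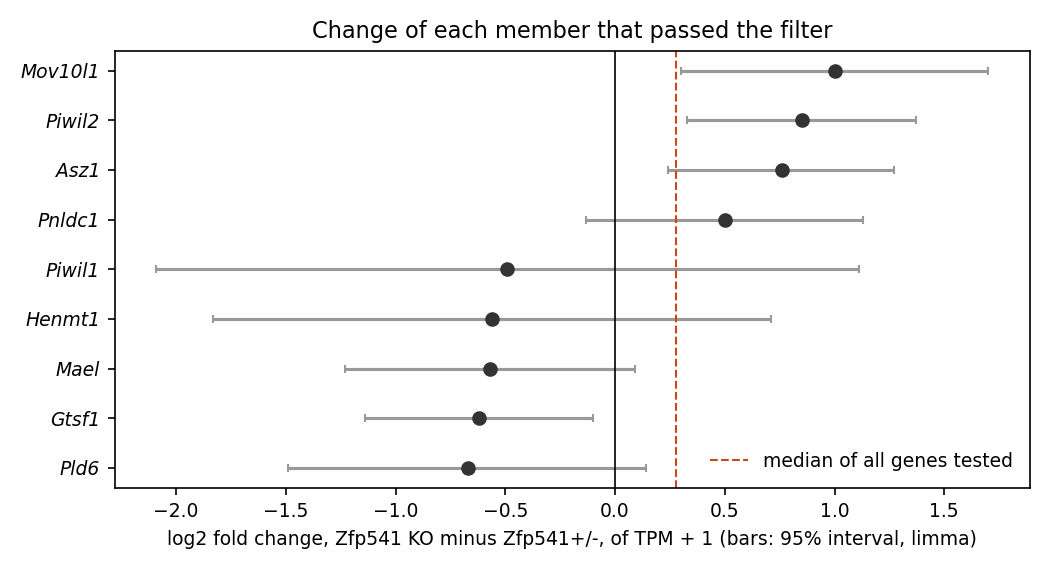
Log2 fold change (x axis) of the 9 members that passed the filter, KO-labelled libraries minus controls, with 95% intervals from limma, and the median of all genes tested as a dashed line at 0.28. *Mov10l1*, *Piwil2*, *Asz1* and *Pnldc1* lie to the right of 0 and the other 5 members to the left, and the interval of *Piwil1* is the widest.

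Among the PIWI genes, *Piwil2* and *Piwil1* differed in the spread within a group. *Piwil2* encodes MILI, the PIWI protein present from fetal germ cells to round spermatids. Its level was 288 and 299 TPM in the controls, against 507 and 551 TPM in the KO-labelled libraries. Both of the latter were higher than both controls, and the gaps inside each group were small. Its log2 fold change was 0.85 (standard error, SE, 0.19, limma adjusted p = 0.310), or 0.56 above the median of all genes. The 4 differences between a KO-labelled library and a control ranged from 0.76 to 0.93.

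*Piwil1* encodes MIWI, which carries pachytene piRNAs and appears at the pachytene stage. It was at 706 TPM in control 1, 244 TPM in control 2, 238 TPM in KO 1 and 364 TPM in KO 2. Control 1 alone was high, and control 2 lay between the KO-labelled libraries. The log2 fold change of -0.49 (SE 0.59, 95% interval -2.09 to 1.11, limma adjusted p = 0.715) was smaller than the difference of 1.53 between the controls. Without control 1 the value was 0.27, and without control 2 it was -1.26, so its direction rested on which control was used. It was -0.19 without KO 1 and -0.80 without KO 2.

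*Piwil4* encodes MIWI2, the nuclear PIWI protein of fetal prospermatogonia, which directs DNA methylation of transposons. Its level was 0.56 and 0.48 TPM in the controls, against 1.8 and 0.98 TPM in the KO-labelled libraries. These levels placed it between the 36.4th and the 45.4th percentile of all rows of its library, whereas *Piwil1* and *Piwil2* were between the 96.8th and the 99.3rd percentile. With no filter on low values its log2 fold change was 0.63 (SE 0.22, limma adjusted p = 0.490), on a scale where the pseudocount of 1 exceeds the control values.

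Of the 3 genes that select and cut the precursor, 2 lay above both controls in the KO-labelled libraries and 1 below, beside 38.6% and 12.1% of all genes tested. *Mov10l1*, the RNA helicase that binds and feeds piRNA precursors, was at 195 and 284 TPM in the controls, against 472 and 473 TPM in the KO-labelled libraries. The latter were nearly equal and both above the controls. Its log2 fold change of 1.00 (SE 0.26, limma adjusted p = 0.311) was the largest among the members. *Asz1*, also called GASZ, is a scaffold of the outer mitochondrial membrane in germ cells. Its level was 93.0 and 110 TPM in the controls, against 163 and 179 TPM in the KO-labelled libraries, without overlap. The log2 fold change was 0.76 (SE 0.19, limma adjusted p = 0.310).

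*Pld6*, or mitoPLD, is the mitochondrial enzyme that cuts the precursor. Its level was 209 and 128 TPM in the controls, against 95.3 and 109 TPM in the KO-labelled libraries, so both of the latter were lower than both controls, though control 2 stood close to KO 2. Its log2 fold change was -0.67 (SE 0.30, limma adjusted p = 0.388). The 4 differences between a KO-labelled library and a control ranged from -1.12 to -0.23, and the value was -0.32 without control 1 and -1.03 without control 2.

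Of the members that finish the 3′ end, the trimmer lay above both controls as deposited, beside 38.6% of all genes tested. The methyltransferase overlapped between the groups. Under median-ratio scaling and quantile normalization the trimmer overlapped too, and the methyltransferase lay below both controls. *Pnldc1*, the exonuclease that trims the 3′ end, was at 27.4 and 28.1 TPM in the controls, against 43.8 and 35.9 TPM in the KO-labelled libraries. The controls were almost equal and lay below both. Its log2 fold change was 0.50 (SE 0.23, limma adjusted p = 0.403), only 0.22 above the median of all genes. *Henmt1*, the methyltransferase that adds a 2′-O-methyl group to the trimmed end, was at 52.8 and 23.3 TPM in the controls, against 20.4 and 27.2 TPM in the KO-labelled libraries. As in *Piwil1*, control 1 alone was high and control 2 lay between the other group's values. The log2 fold change was -0.56 (95% interval -1.83 to 0.71, limma adjusted p = 0.601), and it was 0.014 without control 1, -1.13 without control 2 and -0.36 without KO 1.

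In the KO-labelled libraries both partners of the PIWI proteins lay below both controls, beside 12.1% of all genes tested. *Mael*, or maelstrom, a protein of the germ granules needed for transposon silencing, was at 1194 and 1039 TPM in the controls, against 719 and 778 TPM in the KO-labelled libraries. Each group was compact and the groups did not overlap. Its log2 fold change was -0.57 (SE 0.24, limma adjusted p = 0.377), and the 4 differences between a KO-labelled library and a control lay between -0.73 and -0.42. *Gtsf1*, a small zinc finger protein that binds PIWI proteins and aids their cleavage of targets, was at 373 and 394 TPM in the controls, against 233 and 266 TPM in the KO-labelled libraries. Here too the values of each group lay close together and apart from the other. The log2 fold change was -0.62 (SE 0.19, 95% interval -1.14 to -0.10, limma adjusted p = 0.320).

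The calls depended on the spread between the controls. With control 1 left out, 3 members were higher (*Piwil2*, *Mov10l1* and *Asz1*) and 2 lower (*Mael* and *Gtsf1*) at an FDR of 0.05 by limma. With control 2 left out, the same 3 were higher and 4 were lower, *Mael*, *Gtsf1*, *Pld6* and *Henmt1*. In these fits the lone control is assumed to vary as little as the KO-labelled libraries, and they called 5610 genes higher and 1375 lower without control 1, and 2248 and 1875 without control 2, over all genes tested. With either KO-labelled library left out, 0 members were called. Without control 1 the median of the members was 0.27 and *Mov10l1*, at 0.73, was no longer 2-fold higher, and without control 2 *Piwil1*, *Pld6* and *Henmt1* were more than 2-fold lower.

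A ratio of 2 members within a library does not change when the whole library is multiplied by a constant, as in median-ratio scaling. Overlap and log2 differences of ratios were taken from log2(TPM + 1), so for low genes some dependence on scaling remains. The 9 members give 36 such ratios, and in 22 of them the controls and the KO-labelled libraries did not overlap, or 61.1%, against 45.9% of the ratios over all pairs of genes tested. The ratios share members, and the sets named next were formed by the sign of the members' own change, so these counts are a description. In each of the 10 ratios among *Piwil1*, *Henmt1*, *Mael*, *Pld6* and *Gtsf1* the groups overlapped, with log2 differences of 0.01 to 0.18 in size. Of the 20 ratios between one of these 5 and one of *Piwil2*, *Mov10l1*, *Asz1* and *Pnldc1*, 19 did not overlap, with log2 differences of 1.06 to 1.68 in size. The exception was *Piwil1* to *Pnldc1*, with a difference of 0.99. Among the 6 ratios inside the second set, 3 did not overlap, with differences of up to 0.50.

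*Mael* to *Gtsf1* was one of the steadiest ratios, at 3.20 and 2.64 in the controls and 3.08 and 2.92 in the KO-labelled libraries. *Piwil1* to *Henmt1* was at 13.4 and 10.4 in the controls and at 11.7 and 13.4 in the KO-labelled libraries, although each gene alone differed more than 2-fold between the controls. The next ratios set a gene of one set against a gene of the other, or PIWI gene against PIWI gene. *Piwil1* to *Piwil2* was 2.45 in control 1, 0.814 in control 2, and 0.469 and 0.661 in the KO-labelled libraries, so that *Piwil1* RNA was the more abundant in control 1 alone. *Piwil2* to *Gtsf1* was 0.772 and 0.760 in the controls and 2.17 and 2.07 in the KO-labelled libraries. *Mov10l1* to *Pld6*, helicase to nuclease, was 0.934 and 2.22 in the controls and 4.95 and 4.33 in the KO-labelled libraries. In both of these last ratios both KO-labelled libraries exceeded both controls.

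**Figure D4:**
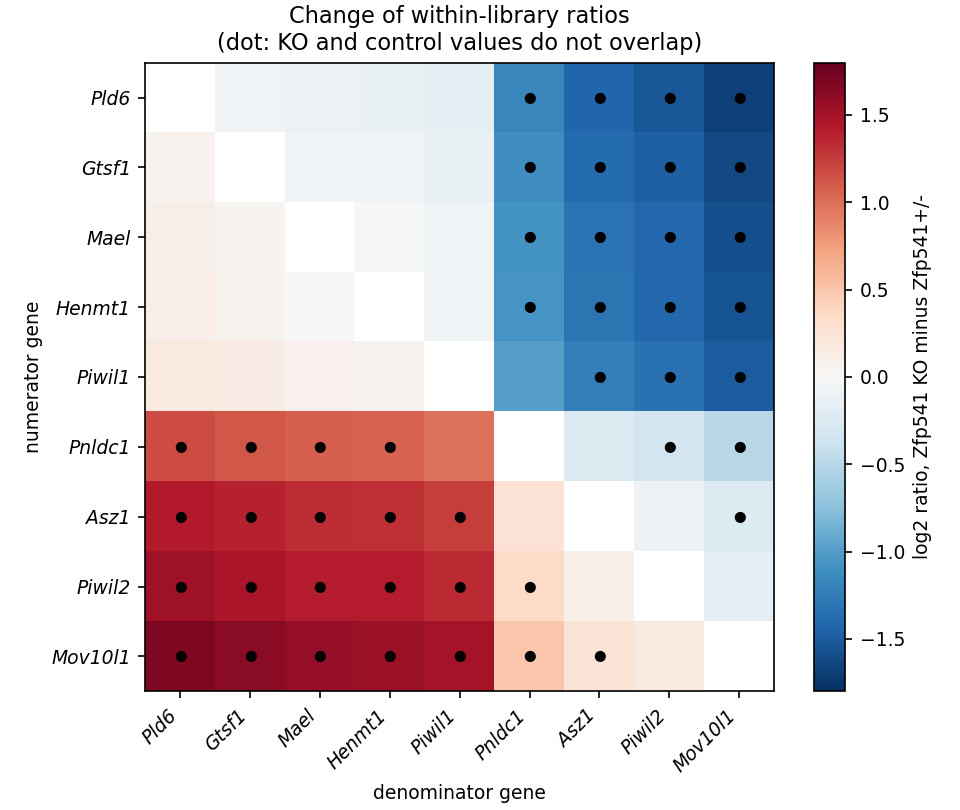
Difference in the log2 ratio of each pair of members (row gene over column gene) between the KO-labelled libraries and the controls, in red where the ratio was higher in the former, with a dot where the groups do not overlap. *Pld6*, *Gtsf1*, *Mael*, *Henmt1* and *Piwil1* form one pale block (differences of up to 0.18) and *Pnldc1*, *Asz1*, *Piwil2* and *Mov10l1* another (up to 0.50), with differences of 0.99 to 1.68 between them. The genes are ordered by their own log2 fold change, and each cell is the difference of 2 such changes. The blocks thus follow from the single-gene values.

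Other genes of the pathway were described from a list of 18, which holds the Tudor domain proteins that dock PIWI proteins, the helicase gene *Ddx4* and further partners. Of these, 16 were in the files and 15 passed the filter, and by limma 0 of them passed an FDR of 0.05, with 4 higher and 0 lower at an unadjusted p under 0.05, beside 10.7% and 3.73% of all genes. The KO-labelled libraries lay above both controls in 9 of the 15 and below them in 1, beside 38.6% and 12.1% of all genes tested, and the median log2 fold change was 0.54, against 0.28 over all genes. *Tex15*, a nuclear factor of piRNA-guided DNA methylation in fetal germ cells, was at 57.5 and 79.0 TPM in the controls, against 173 and 131 TPM in the KO-labelled libraries (log2 fold change 1.15, limma adjusted p = 0.310). *Tdrd6*, a Tudor protein of the chromatoid body that binds MIWI, was at 212 TPM in control 1 but at 25.5 TPM in control 2, and at 14.9 and 23.0 TPM in the KO-labelled libraries. Its log2 fold change of -1.94 (SE 1.07, limma adjusted p = 0.451) came with controls far apart, and control 1 is also the library in which *Piwil1* and *Henmt1* were high.

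Among 3 transcription factor genes tied to pachytene piRNA precursors, 2 lay above both controls, beside 38.6% of all genes tested. *Mybl1* encodes A-MYB, which drives pachytene piRNA loci and many genes of the pathway. Its level was 70.3 and 38.3 TPM in the controls, against 81.5 and 98.1 TPM in the KO-labelled libraries (log2 fold change 0.77, SE 0.36, limma adjusted p = 0.396). *Btbd18*, needed for the transcription of a subset of these loci, was at 19.6 and 27.7 TPM in the controls, against 57.5 and 53.0 TPM in the KO-labelled libraries (log2 fold change 1.21, limma adjusted p = 0.310). *Tcfl5*, named after its values were seen, was at 352 and 147 TPM in the controls, against 147 and 150 TPM in the KO-labelled libraries, with control 1 again the only high library.

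Paralogues of the members that act outside the piRNA pathway were counted for comparison, and 6 of 7 passed the filter, with a median log2 fold change of 0.74 and 4 of them above both controls, beside 38.6% of all genes as deposited and 23.1% after median-ratio scaling. *Ago2*, the slicing Argonaute of the miRNA and siRNA pathways, was at 14.9 and 7.29 TPM in the controls, against 26.3 and 26.2 TPM in the KO-labelled libraries (log2 fold change 1.25, limma adjusted p = 0.328). *Ago3* was at 8.44 and 5.09 TPM in the controls, against 14.0 and 13.9 TPM in the KO-labelled libraries (log2 fold change 0.98, limma adjusted p = 0.362). Each was far below the level of *Piwil1* and *Piwil2* in every library.

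**Figure D5:**
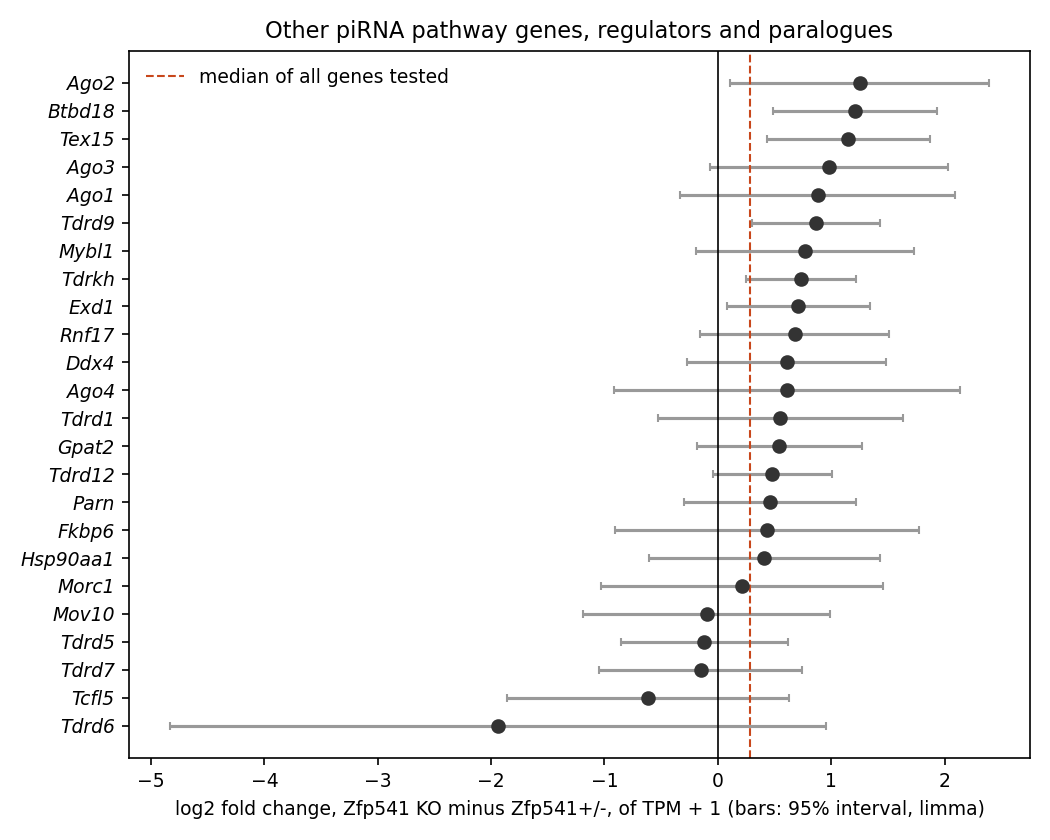
Log2 fold change (x axis) of 24 other piRNA pathway genes, transcription factors and paralogues, KO-labelled libraries minus controls, with 95% intervals from limma and the median of all genes as a dashed line at 0.28. *Ago2*, *Btbd18* and *Tex15* lie farthest to the right, and *Tdrd6*, at -1.94, has the widest interval.

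The genes whose profile over the 4 libraries was nearest to that of a PIWI gene were found by the Euclidean distance between log2(TPM + 1) values, each gene centred on its own mean. Nearest to *Piwil1* were *Clhc1*, at a distance of 0.0262, with 52.1 and 17.4 TPM in the controls, against 17.2 and 27.1 TPM in the KO-labelled libraries, and *Lrriq3*, at 0.104. Nearest to *Piwil2* were *Exoc6*, at 0.0173, with 14.5 and 15.0 TPM in the controls, against 25.9 and 28.1 TPM in the KO-labelled libraries, and *Cenph*, at 0.05. With 4 libraries such a likeness is a description of these values only.

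Of the germ cell marker lists, most leptotene and zygotene markers lay above both controls in the KO-labelled libraries, and most pachytene markers lay below. The sets of members were formed by the sign of their own change, so they are not compared with these lists. In the spermatogonia list 8 of the 10 markers overlapped between the groups. The tested round spermatid markers were split, with 1 above both controls, 1 below and 1 overlapping. Any part of cell stage in the members' differences was not tested. Of the 10 leptotene and zygotene markers, 8 lay above both controls in the KO-labelled libraries, beside 38.6% of all genes tested. Their median log2 fold change was 0.88. The 10 pachytene markers had a median log2 fold change of -1.52. Of these, 6 lay below both controls, beside 12.1% of all genes tested, and 1 above. That one is *Mybl1*, which is also among the transcription factors above. None of the pachytene markers was at 0 in all libraries, and the linker histone gene *Hist1h1t* was at 1.00 to 2.55 TPM. The study reports H1t-positive pachytene spermatocytes among the sorted cells, and this RNA level does not give their share. The 10 spermatogonia markers summed to 448 and 1053 TPM in the controls, against 791 and 628 TPM in the KO-labelled libraries, and the 9 Sertoli cell markers to 1504 and 1833 TPM against 2120 and 1671 TPM. The 11 round spermatid markers summed to 136 TPM in control 1, 55.9 TPM in control 2, 51.1 TPM in KO 1 and 54.8 TPM in KO 2, and most of the sum in control 1 was *Acr*, at 118 TPM there. Without *Acr* the other 10 summed to 18.0 and 19.4 TPM in the controls, against 33.1 and 32.8 TPM in the KO-labelled libraries. Most of the latter sums was the single gene *Spaca1*, at 27.0 and 26.6 TPM there and at 7.34 and 13.9 TPM in the controls. These sums thus do not stand for the list. *Prm1* was at 1.48 TPM in control 1 and listed at 0 elsewhere, whereas *Tnp1* and *Sun5* were listed at 0 in both controls and were between 0.2 and 1.02 TPM in the KO-labelled libraries. The 5 peritubular myoid markers summed to 12.3 to 24.7 TPM.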

How the data were processed

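RNA of sorted GFP-positive testis cells was measured in 4 samples, grouped by their labels into 2 controls and 2 libraries labelled *Zfp541* KO. Per the submitters' processing notes and the study's methods, the authors trimmed reads with Trim Galore 0.5.0 (cutadapt 1.16), aligned them to mm10 with STAR 2.6.0a, and deposited TPM per gene from RSEM 1.3.1. TPM keeps no depth. The study ran its differential analysis with RSEM, whose estimated counts were not used here, and no tests on counts were run. The study compared KO mice with littermates or with age-matched mice of its colony where it could. Which applied to these samples is not stated in the sources used here, and p-values measure only the spread between these samples, which may be technical.

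Genes averaging 1 TPM or more over the samples were fitted by genotype as log2(TPM + 1) in limma 3.58.1 (R 4.3.3), with a mean-variance trend, a two-sided test and Benjamini-Hochberg adjustment over all genes tested at an FDR of 0.05. The procedure was run on simulated data with known changes and the same spread in both groups. Its outcome is not given here, so it does not show that changes of the members' size can be found. Fold changes understate those of low genes. The 27 rows named by a date were given no gene name. The members and lists were chosen with earlier results of these data known. Named besides the members were *Zfp541*, *Rec8*, *Mybl1*, up to 4 other listed genes in each direction with the largest change among those whose groups did not overlap, and the 2 nearest profiles of each PIWI gene. *Tcfl5*, *Hist1h1t*, *Sycp1*, *Sycp3*, *Hormad1*, *Ldhc*, *Meig1*, *Hspa2*, *Acr*, *Spaca1*, *Prm1*, *Tnp1* and *Sun5* fall outside this rule and were named after their values were seen. *Spocd1* and *Dnmt3c* were not matched by symbol. Promoters came from RefSeq (GRCm38.p6) and positions from GENCODE. Protein sequences were not analysed here.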

Additional observations from a re-analysis of the deposited data

How the results depend on the processing

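The fit was repeated with pseudocounts of 0.1 and 5, other filters and scalings, no variance trend, a replicate block, and each sample left out. The crossed block was added after the data were seen. Across the alternatives that kept all 4 samples, all 9 tested members kept their sign and none passed an FDR of 0.05 in limma. With the replicate number as a block 0 members and 0 genes passed. Nothing shows that the shared numbers pair the samples (their deviations correlated at -0.16 over 14512 genes). Crossing the numbers in the block gave 7 genes higher and 80 lower, with 0 members among them. With no filter, 1 gene was higher and 1 lower, and the median of the members was 0.0033, since *Piwil4* then joined an evenly split list. With a pseudocount of 5 and with median-ratio scaling, 0 members were at least 2-fold higher, where *Mov10l1* had been just past that limit.

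With a sample left out, 0 to 5610 genes were higher and 0 to 1875 lower. Such fits gave members higher from 0 to 3, members lower from 0 to 4, and other pathway genes higher from 0 to 8 and lower from 0 to 2. The median of the members ranged from -0.63 to 0.27, members at least 2-fold higher from 0 to 1 and at least 2-fold lower from 0 to 3, and members below both controls from 3 to 5. *Piwil1* turned from -0.49 to 0.27 and *Henmt1* from -0.56 to 0.014 without control 1, whose values of both genes were the highest, and they stood at -1.26 and -1.13 without control 2. TPM holds no depth, so counting error could not be given, and with 2 samples a group the spread of each member is known poorly.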
